A study of Rattus norvegicus with 44 samples.

Results

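A set of 10 genes of activated phagocytic microglia was followed in the dentate gyrus (DG), the part of the hippocampus that receives cortical input and is made up mainly of granule neurons. The 10 genes, Gpnmb, Trem2, Tyrobp, Apoe, Cd68, Itgax, Lgals3, Ctsd, Clec7a and Axl, were chosen by name from 18347 genes of the deposited table, and each matched 1 gene identifier. They were chosen with earlier results of these data known. RNA was sequenced from 44 male F344 rats, with 1 library per rat. The young rats (YNG, n = 10) were 6 months old and are listed with vehicle in the deposited attribute table. The older rats began treatment at 12 months of age and were collected at about 18 months after vehicle (AV, n = 12), ABT-263 at 12 mg/kg (AA, n = 11) or dasatinib at 1.2 mg/kg with quercetin at 12 mg/kg (ADQ, n = 11). The agents are senolytics, drugs meant to remove senescent cells, and were given by gavage on 5 days per cycle with 2 weeks between cycles. The GEO labels give the age of each rat, and the treatment was read from the deposited attribute table by rat number.

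Microglia are the resident macrophages of the brain, and they take up debris, dying cells and myelin. Trem2 is a surface receptor for lipids and apoptotic cells, and Tyrobp (DAP12) is the adaptor through which it signals. Apoe, Gpnmb, Lgals3, Itgax, Clec7a, Axl, Cd68 and Ctsd belong to a state that microglia enter in aging, demyelination and amyloid disease, when lysosomal and lipid-handling genes are turned up. In whole tissue, a larger number of cells of a type and more RNA per cell cannot be told apart. Apoe is also made in quantity by astrocytes, Axl by astrocytes and vessels, and Ctsd by nearly every cell.

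The values are read counts divided by a size factor per library, called signal here, and the library depth estimated from the value of 1 read was 10167400 to 24329800 reads. A gene was tested where its mean signal was at least 5, which kept 15598 genes and 8 of the 10. Itgax and Clec7a fell below that level, with medians of 0.945 and 1.86 over all rats, and are given by rat. A call means an unadjusted p under 0.05 in limma, the threshold the study used, with the p adjusted over all genes tested beside it. Markers of microglia were present in every group, with 18 of 19 marker genes in the table and summed signals of 7564 to 12538 in YNG, 9377 to 21370 in AV, 8353 to 13776 in AA and 8732 to 10815 in ADQ.

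In the AV group, 4 libraries stood apart in genes of cytotoxic lymphocytes. In AV rats 3989, 3999, 4009 and 4568, Prf1 (perforin) lay between 199 and 461, whereas the highest of the other 40 rats was 13.9. Ccl5 lay between 112 and 529 in these 4 rats against at most 11.9 elsewhere, and Nkg7 between 33.3 and 214 against at most 3.13. Cd3e and Cd4 did not follow the same division. Cd3e ranged from 1.07 to 159 in the 4 rats and reached 233 in another AV rat. Cd4 ranged from 99.2 to 209 in the 4 rats and reached 296 among the other 40. Over the T and NK cell list (10 of 12 genes in the table), the summed signal was 672 to 1690 in these 4 rats and at most 382 in the other 40. The comparisons of AV over all rats are therefore given for each of the 10 genes and for the counts of the gene lists with all 12 AV rats and with the remaining 8, for the fits and permutation tests named. Values within a range of animal number, and relations between genes, use all rats. The part of these lymphocyte genes in the results was not tested.

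The promoters of 4 of the genes are shown because the genes below were compared for shared letters upstream of their starts. GAGGAA is the core bound by PU.1, the transcription factor of macrophages and microglia, and CACGTG is the E-box bound by TFEB and related regulators of lysosomal genes. The 250 bases before the start are from RefSeq on build GRCr8, 5′ to 3′ along the gene, with either motif on either strand in capitals.
Gpnmb, chr4:79340878-79341127, plus strand: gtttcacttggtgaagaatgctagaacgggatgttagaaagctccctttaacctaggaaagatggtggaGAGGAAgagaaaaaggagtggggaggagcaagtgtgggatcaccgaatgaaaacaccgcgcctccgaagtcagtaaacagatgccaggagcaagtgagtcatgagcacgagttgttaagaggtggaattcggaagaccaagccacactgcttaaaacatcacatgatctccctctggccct
Trem2, chr9:20151780-20152029, minus strand: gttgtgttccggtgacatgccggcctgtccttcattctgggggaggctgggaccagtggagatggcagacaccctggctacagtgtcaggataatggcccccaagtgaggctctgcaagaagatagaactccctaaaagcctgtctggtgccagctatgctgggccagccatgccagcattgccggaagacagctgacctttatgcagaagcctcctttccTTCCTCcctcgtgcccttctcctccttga
Cd68, chr10:54882442-54882691, minus strand: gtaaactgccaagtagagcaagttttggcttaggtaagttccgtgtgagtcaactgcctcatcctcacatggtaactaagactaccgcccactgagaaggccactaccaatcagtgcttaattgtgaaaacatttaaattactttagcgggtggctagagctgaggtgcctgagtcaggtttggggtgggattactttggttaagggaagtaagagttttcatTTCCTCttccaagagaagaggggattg
Ctsd, chr1:206968822-206969071, minus strand: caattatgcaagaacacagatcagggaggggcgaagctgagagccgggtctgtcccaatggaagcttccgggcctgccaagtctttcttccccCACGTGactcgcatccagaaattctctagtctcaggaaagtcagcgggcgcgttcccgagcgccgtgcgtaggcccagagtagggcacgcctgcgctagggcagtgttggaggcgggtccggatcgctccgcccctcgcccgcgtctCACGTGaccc
The promoter table held 8 of the 10 genes, without Tyrobp and Lgals3. GAGGAA was present upstream of at least 1 start of 5 of them, Gpnmb, Trem2, Cd68, Axl and Apoe, and of 23.3% of the 33469 promoters in the table. A gene can have several promoters, as Apoe does, not all of them with the motif. The count of genes and the share of promoters are therefore unlike units. It began at position -181 in Gpnmb, -29 in Trem2 and -27 in Cd68, counted from the start. CACGTG was present in Ctsd alone, at -157 and -10, and in 5.59% of all promoters. These matches describe letters and not binding.

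Aging was examined by comparing AV with YNG. Gpnmb, Tyrobp, Lgals3 and Cd68 rose, by 0.80, 0.62, 1.23 and 0.94 on the log2 scale, and Apoe fell by 0.33. Trem2, Ctsd and Axl did not pass the test. At the unadjusted threshold, 4 of 8 genes were higher and 1 was lower, while 10.6% of all genes tested were higher and 10.7% were lower. Because the genes were chosen with earlier results known, counts beside such shares describe the set and do not test it. After adjustment 2 genes, Gpnmb and Tyrobp, were higher and none was lower, against 1.81% and 0.539% of all genes. The median log2 difference was 0.44 for the 8 genes and -0.0017 for all genes. Log2 differences are on the scale of signal + 1, which understates changes of genes with low signal.

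**Figure D1:**
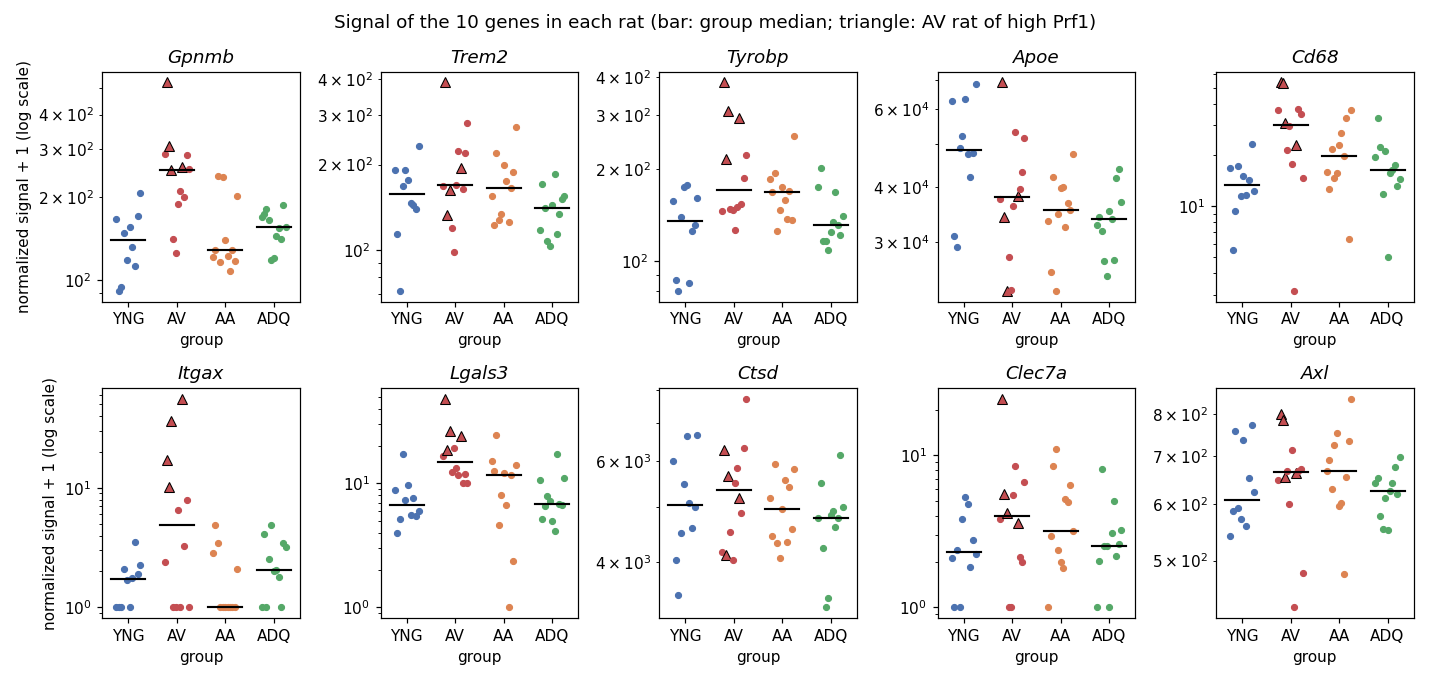
Normalized signal plus 1 (log scale) of each of the 10 genes in each of 44 rats by group, with bars at the group medians and triangles for the 4 AV rats of high Prf1. Gpnmb had a median of 251 in AV against 140 in YNG, and the triangles lie highest in Itgax, at 9.13 to 55.02 before 1 is added.

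Gpnmb, a transmembrane glycoprotein of lysosomes in lipid-laden macrophages, had a lowest, median and highest signal of 90.2, 140 and 206 in YNG. In AV these values were 125, 251 and 523, in AA 107, 128 and 238, and in ADQ 118, 155 and 187. Of the 12 AV rats, 8 lay above every YNG rat, compared with 2 of 11 AA rats and 0 of 11 ADQ rats, so the groups overlapped but AV was displaced upward. Gpnmb was 0.80 ± 0.17 (SE) higher on the log2 scale in AV than in YNG (adjusted p = 0.0062, n = 12 and 10, limma). Without the 4 rats of high Prf1 the difference was 0.58 ± 0.17 (limma p = 0.00154, adjusted p = 0.197), and the 8 remaining AV rats ranged from 125 to 287.

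Tyrobp, the signaling adaptor of Trem2 and of other activating receptors, had a lowest, median and highest signal of 78.7, 134 and 177 in YNG. The values were 126, 170 and 384 in AV, 124, 168 and 256 in AA, and 108, 130 and 201 in ADQ. In all, 6 AV rats, 3 AA rats and 1 ADQ rat exceeded every YNG rat. The rise in AV was 0.62 ± 0.17 (adjusted p = 0.033, limma), and the 4 rats of high Prf1 ranged from 215 to 384, with 3 of them the highest of the group. Without them the difference was 0.32 ± 0.15 (limma p = 0.0425, adjusted p = 0.530). Trem2 itself ranged from 70.4 to 231 in YNG (median 156) and from 97.0 to 390 in AV (median 168), and the difference of 0.26 ± 0.18 did not pass the test (adjusted p = 0.385, limma). The Trem2 difference without the 4 rats was 0.19 ± 0.19 (limma p = 0.319). With the mean log2 signal of the T and NK cell markers as a covariate, the Tyrobp difference was 0.25 and was not called (limma p = 0.114).

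Lgals3 (galectin-3), a lectin that binds damaged lysosomes and phagocytic receptors, had few reads in every library. Its lowest, median and highest signal was 3.01, 5.66 and 16.3 in YNG and 9.06, 13.9 and 47.2 in AV. It was 0, 10.8 and 23.3 in AA and 3.13, 5.85 and 16.1 in ADQ. All 12 AV rats were above the YNG median, and 5 were above every YNG rat. The rise was 1.23 ± 0.36 (limma p = 0.0015, adjusted p = 0.057). Without the 4 rats it was 0.86 ± 0.39 (limma p = 0.0345, adjusted p = 0.509), and with the T and NK cell score as a covariate it was 0.68 and was not called (limma p = 0.0834).

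Cd68, a glycoprotein of phagocyte lysosomes, had a lowest, median and highest signal of 4.51, 12.3 and 22.2 in YNG and 2.14, 29.2 and 52.8 in AV. Of 12 AV rats, 7 exceeded every YNG rat, whereas rat 4567 was the lowest of all 44. The values were 5.43, 18.7 and 36.1 in AA and 4.004, 15.3 and 32.04 in ADQ. The rise in AV was 0.94 ± 0.33 (limma p = 0.0074, adjusted p = 0.109), and it was no longer called without the 4 rats, at 0.63 ± 0.36 (limma p = 0.0899). With the T and NK cell score as a covariate it was 0.50 (limma p = 0.178), and with a microglia marker score (the mean log2 signal of that list) it was 0.58 (limma p = 0.0853), neither of them called.

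Apoe, the apolipoprotein that carries cholesterol between cells, went the other way. Its lowest, median and highest signal was 29284, 48480 and 68635 in YNG and 23245, 37907 and 69074 in AV. It was 23277, 35584 and 47489 in AA and 25167, 33898 and 44026 in ADQ. The groups overlapped widely, but no AA rat and no ADQ rat lay above the YNG median. Apoe was 0.33 ± 0.15 lower in AV (limma p = 0.0381, adjusted p = 0.207), and the difference of AV from YNG was not called in the permutation test (p = 0.0979). Without the 4 rats of high Prf1 the limma difference was -0.33 ± 0.16 (p = 0.0416, adjusted p = 0.530), and with the T and NK cell score as a covariate it was -0.35 and was not called (limma p = 0.0567). The rats fall into 2 ranges of animal number, a (V1 to V6 and up to 4011) and b (V9 to V12 and from 4031), which the labels do not describe as batches. Within range a Apoe was 0.65 lower in AV (limma p = 0.00464), and within range b it was 0.048 higher (limma p = 0.810). Ctsd, an aspartic protease of the lysosome, had medians of 5042 in YNG and 5340 in AV, and Axl, a receptor tyrosine kinase that recognizes Gas6 on dying cells, had medians of 607 and 664. The 95% intervals of their log2 differences, -0.16 to 0.27 and -0.16 to 0.18, include 0. In the fit of the remaining 40 rats the differences were 0.057 (limma p = 0.648) and -0.077 (limma p = 0.420).

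Itgax (CD11c), the integrin that marks a subset of activated microglia and also dendritic and other immune cells, was close to the limit of detection outside AV. It was under 3 reads in 9 of 10 YNG rats, 9 of 11 AA rats and 8 of 11 ADQ rats, after rounding to whole reads, with highest signals of 2.502, 3.88 and 3.87. In AV it ranged from 0 to 55.02 with a median of 3.92, and the 4 rats of high Prf1 held the 4 highest values, from 9.13 to 55.02. The other 8 AV rats ranged from 0 to 6.95 with a median of 0.704. The permutation test of mean log2 values gave p = 0.0269 for AV against YNG with all rats, and the exact permutation test without the 4 rats gave p = 0.361. Clec7a (Dectin-1), a receptor for fungal glucans, was under 3 reads in 27 of 44 rats and reached 22.6 in rat 3989. Its permutation p for AV against YNG was 0.162, and the exact permutation p without the 4 rats was 0.548.

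Within the ranges of animal number, Gpnmb was higher in AV than in YNG by 0.78 in range a (limma p = 0.00775) and by 0.85 in range b (limma p = 0.000408), and Tyrobp by 0.60 (limma p = 0.0207) and 0.71 (limma p = 0.0047). Lgals3 was higher by 1.55 in range a (limma p = 0.000301) and its difference of 0.92 in range b was not called (limma p = 0.155). Cd68 was higher by 1.25 in range a (limma p = 0.000116), against 0.73 in range b (limma p = 0.214).

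**Figure D2:**
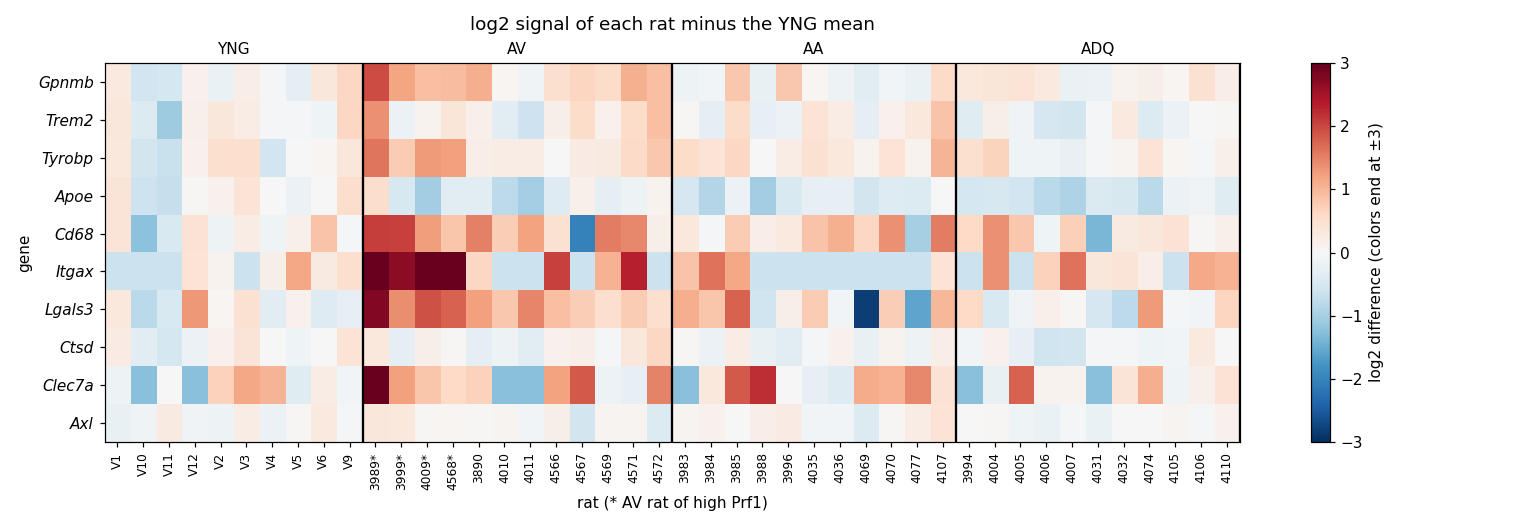
Log2 signal of each of the 10 genes (rows) in each rat (columns, by group) minus the YNG mean, with asterisks on the 4 AV rats of high Prf1 and colors ending at ±3. Rat 3989 was above every YNG rat in 9 of 10 genes.

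The number of genes per rat that exceeded every YNG rat ranged from 0 to 9 in AV with a median of 3. It ranged from 0 to 4 in AA with a median of 1 and from 0 to 3 in ADQ with a median of 0. In AV, rat 3989 had 9 of 10 genes above the YNG range, with Ctsd the exception, and rat 3999 had 7. Rats 4009 and 4572 had 5, and rats 4568 and 4571 had 4. Rat 4572 had Gpnmb, Trem2, Tyrobp, Ctsd and Clec7a above the range with a Prf1 signal of 3.40. Rat 4010 had no gene above the range.

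Treated older rats were then compared with YNG, which was also the reference for AV. In AA, Tyrobp was 0.39 ± 0.17 higher (limma p = 0.028, adjusted p = 0.139) and Apoe was 0.45 ± 0.16 lower (limma p = 0.0068, adjusted p = 0.0742). This was 1 gene of 8 in each direction, against 12.6% higher and 14.1% lower among all genes, and none of the 8 was called after adjustment, when 1.55% and 2.31% of all genes were. In ADQ, Apoe was 0.52 ± 0.16 lower (limma p = 0.0019, adjusted p = 0.0383) and no other gene was called. The adjusted call was lost when 1 of rats 4005, 4006, 4007, 4032, 4074, V1, V2, V3, V4, V9 or V12 was left out (limma, highest adjusted p 0.0918). Among all genes 13.5% were higher and 14.6% lower in ADQ, and 3.12% and 3.96% after adjustment. Gpnmb differed from YNG by 0.09 ± 0.18 in AA and by 0.19 ± 0.18 in ADQ, with 95% intervals of -0.25 to 0.44 and -0.16 to 0.53.

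Treatment was examined by comparing AA and ADQ with AV. Gpnmb and Lgals3 were lower than in AV in both treated groups, and Tyrobp and Trem2 were also lower in ADQ. No gene of the table passed adjustment in either comparison, with smallest adjusted p values of 0.526 and 0.134 over all genes (limma), so all of these calls are at the unadjusted threshold. In AA, 2 of 8 genes were lower and 0 higher, against 3.1% and 1.4% of all genes. In ADQ, 4 of 8 were lower and 0 higher, against 5.9% and 3.42%. The median log2 difference of the 8 genes was -0.18 in AA and -0.46 in ADQ, and that of all genes was 0.00093 and 0.0081. Both comparisons use the same AV rats.

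**Figure D3:**
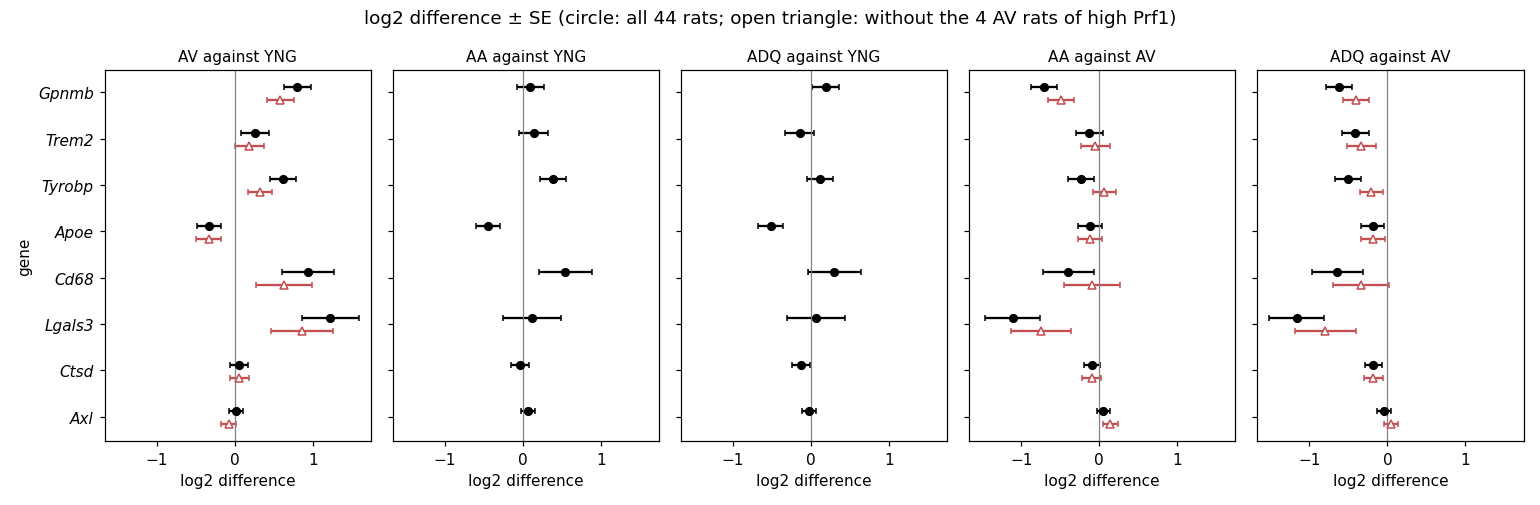
Log2 difference ± SE of the 8 tested genes in 5 comparisons, with circles for all 44 rats and open triangles for the fit without the 4 AV rats of high Prf1. In AA against AV, Gpnmb moved from -0.71 to -0.49 and Tyrobp from -0.24 to 0.065 when those rats were left out.

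Gpnmb was 0.71 ± 0.17 lower in AA than in AV (limma p = 0.000118, adjusted p = 0.526), and no AA rat was above the AV median. It was 0.62 ± 0.17 lower in ADQ (limma p = 0.00063, adjusted p = 0.185), where no rat was above the AV median either. Without the 4 rats of high Prf1 the differences were -0.49 ± 0.17 (limma p = 0.00591) and -0.40 ± 0.17 (limma p = 0.0229). In ADQ the Gpnmb difference was not called with the microglia score as a covariate (-0.17, limma p = 0.131) or with the T and NK cell score (-0.30, limma p = 0.0945). Lgals3 was 1.11 ± 0.35 lower in AA (limma p = 0.003) and 1.16 ± 0.35 lower in ADQ (limma p = 0.002). Without the 4 rats these were -0.74 ± 0.39 (limma p = 0.061, not called) and -0.79 ± 0.39 (limma p = 0.0458). With the T and NK cell score they were -0.60 and -0.59 (limma p = 0.111 and 0.127), and with the microglia score the difference in ADQ was -0.60 (limma p = 0.0926), none of these called.

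Tyrobp was 0.50 ± 0.16 lower in ADQ than in AV (limma p = 0.0033, adjusted p = 0.266), and 0.20 ± 0.15 lower without the 4 rats, which was not called (limma p = 0.182). Trem2 was 0.41 ± 0.17 lower in ADQ (limma p = 0.023, adjusted p = 0.461) and 0.33 ± 0.18 lower without the 4 rats, again not called (limma p = 0.0738). Leaving out rat 3989 alone also ended the Trem2 call (highest p 0.0651). With the microglia score as a covariate, Tyrobp and Trem2 in ADQ were at -0.15 and -0.013, and with the T and NK cell score at -0.12 and -0.27, and none of these differences was called. Cd68 did not pass the test in either treated group, with differences of -0.40 ± 0.33 and -0.64 ± 0.33, or of -0.09 ± 0.36 (limma p = 0.803) and -0.34 ± 0.36 (limma p = 0.351) without the 4 rats. Apoe, Ctsd and Axl, which were not called in either treated group, were at -0.11, -0.093 and 0.14 in AA without the 4 rats and at -0.19, -0.18 and 0.045 in ADQ, again not called. Trem2 and Tyrobp in AA were at -0.049 and 0.065 without them. Itgax had a permutation p of 0.0224 for AA and 0.0974 for ADQ against AV, and without the 4 rats the exact permutation p values were 0.336 and 0.991. For Clec7a without the 4 rats they were 0.556 and 0.700.

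Within range a, Cd68 was 1.17 lower in AA than in AV (limma p = 0.000422) and 0.81 lower in ADQ (limma p = 0.00947), whereas within range b the differences were 0.34 and -0.42 and neither was called. Gpnmb was lower than in AV within both ranges, by 0.61 and 0.78 in AA and by 0.60 and 0.62 in ADQ. Lgals3 was 0.94 and 1.19 lower in AA within ranges a and b, and 1.55 lower in ADQ within range a, with -0.78 within range b not called (limma p = 0.179).

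Over all genes, leaving out the 4 rats reduced the share called as well. In AV against YNG it was 5.29% higher and 4.02% lower, of 15551 genes, and 4 of the 8 genes were called. In AA against AV 1.16% were lower and 1 of the 8 genes was called, and in ADQ against AV 2.6% were lower and 2 of the 8 were called.

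AA and ADQ were compared directly to ask whether the agents differed. None of the 8 genes passed the test, when 2.13% of all genes were higher and 2.4% lower in AA. Tyrobp was 0.27 ± 0.17 higher in AA than in ADQ (95% interval -0.06 to 0.59), and the permutation test, without the shared spread of the 4 groups, gave p = 0.0402. Trem2 was 0.29 ± 0.18 higher in AA (95% interval -0.06 to 0.63). The agents differ in dose and kind, and the intervals do not show that they act alike.

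Other genes of the same pathways, with the 10 genes left out, were counted from lists chosen with earlier results known. Their counts at the unadjusted threshold stand against the shares over all genes, which were 10.6% higher and 10.7% lower in AV against YNG, 3.1% lower in AA against AV and 5.9% lower in ADQ against AV. Leaving out the 4 rats of high Prf1 made these shares 5.29%, 4.02%, 1.16% and 2.6%. No list was tested as a set, and the values of single genes below are with all rats unless stated. In the TREM2 and TYROBP signal chain, 10 of 15 genes tested were higher in AV than in YNG and 0 lower, with a median of 0.43. In AA against AV 4 were lower, and in ADQ against AV 8 were lower. When the 4 rats were left out, these counts were 5 higher, 0 lower in AA and 1 lower in ADQ. Pik3cg, a phosphoinositide kinase of leukocytes, was 115 ± 25.9 (SD) in AV and 81.2 ± 19.4 in YNG (log2 difference 0.50, limma adjusted p = 0.0188). Plcg2, the phospholipase downstream of Trem2, was 132 ± 45.9 and 88.1 ± 25.9 (adjusted p = 0.0346, limma), and Rasgrp3 217 ± 59.9 and 149 ± 37.04 (adjusted p = 0.0367, limma). The log2 differences without the 4 rats were 0.35, 0.31 and 0.49 (limma adjusted p = 0.363, 0.526 and 0.205).

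Among other pattern and Fc receptors of phagocytes, 7 of 14 genes rose in AV against YNG and 0 fell, and 7 were lower in AA and 6 in ADQ than in AV. The counts without the 4 rats were 2 higher, 1 lower in AA and 2 lower in ADQ. Fcgr2b, the inhibitory Fc receptor, was 158 ± 59.7 in AV and 70.4 ± 19.1 in YNG, a log2 difference of 1.13 (limma adjusted p = 1.18e-05). Itgb2, the beta chain shared by leukocyte integrins including that of Itgax, was 235 ± 91.1 and 127 ± 15.1 (log2 difference 0.80, limma adjusted p = 0.000307). The Fcgr2b and Itgb2 differences without the 4 rats were 1.0045 and 0.51 (limma adjusted p = 0.00021 and 0.0115). Fcgr2b was also above YNG in AA, by 0.74, and in ADQ, by 0.77 (limma adjusted p = 0.0184 and 0.00766). For Itgb2 these differences were 0.31 and 0.27 (limma adjusted p = 0.136 and 0.182). Against YNG, 2 of the 14 were higher and 0 lower in AA, where 12.6% and 14.1% of all genes were. In ADQ 1 was higher and 1 lower, against 13.5% and 14.6%. Itgam, the alpha chain of complement receptor 3, was 313 ± 94.4 in AV and 236 ± 46.6 in YNG (limma p = 0.00446, adjusted p = 0.0917), and the difference without the 4 rats was 0.20 (limma p = 0.116). Leukocytes other than microglia also express these integrins.

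Of the receptors for apoptotic cells and their ligands, 3 of 12 genes rose in AV against YNG and 1 fell, with a median of 0.12, and 1 was lower in each treated group against AV. With those rats left out, 2 were higher and 1 lower, then 1 lower in AA and 0 in ADQ. Mertk, the receptor tyrosine kinase closest to Axl, was 788 ± 137 in AV and 652 ± 112 in YNG (limma p = 0.00591), and 647 ± 103 in AA (limma p = 0.00348 against AV). Its differences without the 4 rats were 0.20 from YNG (limma p = 0.0454) and -0.21 in AA against AV (limma p = 0.0319). Mfge8, a bridge between dying cells and integrins, was 2790 ± 809 in AV and 4010 ± 1254 in YNG, a fall of 0.50 on the log2 scale (limma p = 0.00132, adjusted p = 0.0538), and the difference was -0.36 without the 4 rats (limma p = 0.0301). Among lysosomal proteases and hydrolases, 6 of 25 identifiers tested rose in AV against YNG and 0 fell, while 4 were lower in AA and 8 in ADQ than in AV. Leaving out the 4 rats gave 2 higher, 3 lower in AA and 2 lower in ADQ. Lamp2, a lysosomal membrane protein, was 877 ± 277 in AV and 648 ± 69.6 in YNG (limma adjusted p = 0.0351), with a log2 difference of 0.31 without the 4 rats (adjusted p = 0.217, limma).

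In lipoprotein and cholesterol handling, the setting of Apoe, 7 of 16 genes rose in AV against YNG and 1 fell, and 1 was lower in AA and 4 in ADQ against AV. In the remaining 40 rats 2 were higher and 0 lower, then 0 lower in AA and 2 in ADQ. Npc1, which exports cholesterol from lysosomes, was 1022 ± 191 in AV and 773 ± 116 in YNG (log2 difference 0.39, limma adjusted p = 0.0264; 0.35 and 0.225 without the 4 rats). Of the other genes of disease-associated microglia, 7 of 14 were higher in AV and 0 lower, and 2 were lower in AA and 6 in ADQ than in AV. After leaving out the 4 rats, 13 passed the filter on low values, 3 of them higher, with 0 lower in AA and 3 in ADQ. Lgals3bp, a secreted ligand of galectins, was 521 ± 126 in AV and 388 ± 56.1 in YNG (limma adjusted p = 0.0143; 0.394 without the 4 rats). Of homeostatic microglia genes, 4 of 9 rose in AV against YNG and 0 fell, and 4 were lower in AA and 5 in ADQ against AV. The counts were 3 higher without the 4 rats, with 1 lower in AA and 3 in ADQ. Sall1, a transcription factor of resting microglia, was 669 ± 174 and 427 ± 74.3 (log2 difference 0.61, limma adjusted p = 0.00327), and P2ry12, the purinergic receptor of surveying microglia, 244 ± 89.1 and 182 ± 52.3 (limma p = 0.016). The differences without the 4 rats were 0.47 (limma adjusted p = 0.107) and 0.32 (limma p = 0.0479). Sall1 was also above YNG in AA, by 0.53, and in ADQ, by 0.46 (limma adjusted p = 0.0241 and 0.0261). For P2ry12 these differences were 0.13 and 0.079, and neither was called (limma p = 0.438 and 0.63). Against YNG, 1 of the 9 was higher and 1 lower in AA, where 12.6% and 14.1% of all genes were. In ADQ 1 was higher and 2 lower, against 13.5% and 14.6%.

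Markers of other cells were counted in the same way, against the same shares over all genes. Endothelial markers were higher in AV than in YNG for 7 of 7 genes tested, with summed signals of 1746 to 5925 in YNG, 3084 to 16428 in AV, 3107 to 4834 in AA and 3099 to 3817 in ADQ. Against AV, 4 were lower in AA and 5 in ADQ. Oligodendrocyte markers were higher in AV for 7 of 8, with 0 lower in AA and 5 in ADQ against AV. Astrocyte markers were higher for 3 of 10, with 2 lower in each treated group. Microglia identity markers were higher for 8 of 18, with 6 lower in AA and 10 in ADQ. In the fit without the 4 rats, 3 endothelial, 7 oligodendrocyte, 0 astrocyte and 4 microglia markers were higher in AV, 0, 0, 1 and 1 were lower in AA, and 0, 2, 1 and 5 were lower in ADQ. None of 6 border macrophage markers passed the test, with sums of 123 to 181 in YNG and 105 to 302 in AV, and 1 blood myeloid marker was tested and did not pass. Of 5 red blood cell markers, 0 were called in AV against YNG, and 1 was lower in AA and 5 in ADQ against AV. In the fit without the 4 rats none of these was called. Rat 3989 had the highest sum of its group in the endothelial, red blood cell, oligodendrocyte, astrocyte and microglia lists. It was also highest in the border macrophage, blood myeloid, pericyte, meninges and CA1 pyramidal cell lists. Another AV rat was highest in the T and NK cell, B cell, choroid plexus, granule cell and CA3 lists. The part of these cells in the differences was not tested.

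The genes were also related to each other from rat to rat, after the group means were removed. Tyrobp was related to 7 of the 9 other genes at an adjusted p under the threshold over 9 relations. The Pearson r was 0.624 for Trem2 (Spearman rho 0.539, permutation p = 1e-05, the smallest the test can give, adjusted p = 9e-05) and 0.618 for Gpnmb (rho 0.592, permutation p = 2e-05). It was 0.573 for Ctsd, 0.545 for Lgals3 and 0.498 for Itgax. Without the 2 rats farthest from the median of Tyrobp, r was 0.597 for Trem2, 0.550 for Gpnmb and 0.388 for Itgax. Within animal ranges a and b, r was 0.720 and 0.642 for Trem2 and 0.541 and 0.805 for Gpnmb. Over all genes tested the median r with Tyrobp was 0.024, and 0.474% of genes had an r as high as that of Trem2. The share was 3.94% for Apoe and 5.57% for Cd68, which also passed. Clec7a (r 0.189) and Axl (r 0.233) did not pass the test.

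**Figure D4:**
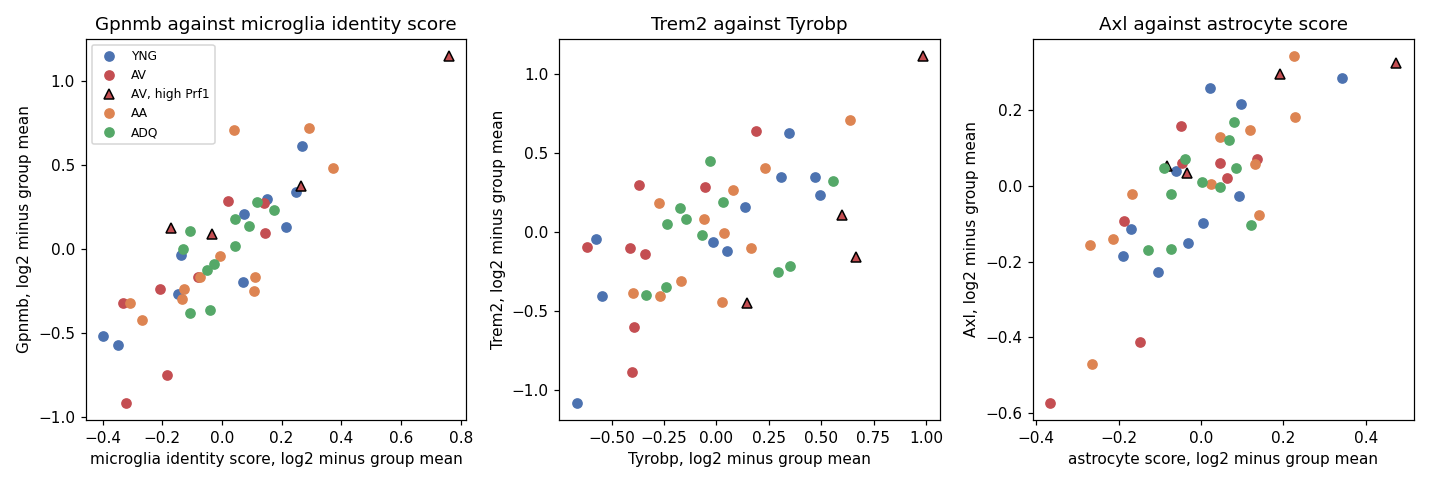
Group-centred log2 values of each rat for Gpnmb against the microglia identity score, Trem2 against Tyrobp and Axl against the astrocyte score, colored by group with triangles for the 4 AV rats of high Prf1. Pearson r over 44 rats was 0.839, 0.624 and 0.782.

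The genes were then related to marker scores of microglia and astrocytes, each the mean log2 signal of a list without the 10 genes. Of 20 relations, 11 passed adjustment over the 20 by Pearson r, and Gpnmb, Tyrobp and Cd68 passed with both scores. For Tyrobp and Cd68 the r with the astrocyte score was 0.367 and 0.418. It was 0.192 and 0.188 without the 2 rats farthest from the median of that score (permutation p = 0.225 and 0.231). By Spearman rho over all rats, neither passed with the astrocyte score (permutation test, adjusted p = 0.116 and 0.164). Gpnmb had the highest r with the microglia score (r 0.839, rho 0.824, permutation p = 1e-05), and it remained at 0.785 without the 2 farthest rats and was 0.850 and 0.883 within ranges a and b. It also passed with the astrocyte score (r 0.621, rho 0.576, permutation p = 1e-05; 0.709 and 0.518 within the ranges). Trem2, Tyrobp and Apoe had r of 0.717, 0.697 and 0.697 with the microglia score. Axl passed with the astrocyte score (r 0.782, rho 0.720, permutation p = 1e-05; 0.770 and 0.803 within the ranges) and had r of 0.236 with the microglia score (permutation p = 0.125). Apoe had r of 0.208 with the astrocyte score over all rats, but 0.622 within range a and 0.215 within range b. Libraries share depth and tissue composition, so genes may vary together between libraries for reasons that were not tested.

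The genes most like each of these were found among all genes with a mean signal of at least 20. For Gpnmb they were Gfap (r 0.880), Ccnd1 (r 0.843) and Ndrg2 (r 0.842). For Tyrobp they were the complement gene C1qc (r 0.823), RGD1565166 (r 0.797) and Slc1a4 (r 0.751). The closest to Trem2 was Apoe (r 0.868), and the closest to Itgax were Shc4 (r 0.754), Ccl5 (r 0.746) and Adgre5 (r 0.698). The closest to Axl was Plpp3 (r 0.821), to Ctsd was Enho (r 0.923) and to Apoe was Ergic3 (r 0.904). The highest r was 0.653 for Cd68, 0.607 for Lgals3 and 0.567 for Clec7a.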

How the data were processed

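RNA from the DG of 1 hemisphere of each of 44 rats was sequenced by the study on an Ion Torrent instrument. Per the submitters' processing notes and the methods, the authors aligned reads to rn6 with STAR 2.5.3a in Partek and scaled counts by the median ratio, and the deposited values are that normalized signal, not counts. About 79.2% to 84.5% of low values of each library lay within 0.05 of a whole number of reads (up to 20), so reads were not recovered as counts, and depth is an estimate. The 24694 deposited rows were summed to 18347 genes. Tests used limma 3.58.1 in R 4.3.3 (empirical Bayes with trend) on log2(signal + 1), for genes with a mean of at least 5, in 1 fit of the 4 groups, two-sided, with Benjamini-Hochberg adjustment. It was tested on simulated data. Single genes and correlations used two-sided permutation tests with 100000 resamples in scipy 1.17.1, exact where fewer arrangements exist. The 10 genes and all lists were chosen with earlier results of these data known. Named genes were the 10 genes, the 3 genes of each list with the smallest p in AV against YNG (those printed are a selection of them), and the 3 genes most correlated with each gene. The fits without the 4 AV rats (Prf1 signal above 100), without rats 4566 to 4572 and with T and NK cell or choroid plexus scores were chosen after seeing the data.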

Additional observations from a re-analysis of the deposited data

Results flagged for a closer look

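In YNG, the group small enough for Dixon's test, 2 of the 10 genes had a rat far from the others. The Itgax signal of rat V5 was 2.502, and the gap to the next rat was 0.501 of the group's range. This signal is about 3 reads, and the other YNG rats had 0 or about 1 read. The Lgals3 signal of rat V12 was 16.3, with a gap of 0.576 of the range. Chance flags about 1 in 20 groups, and 10 were examined.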

How the results depend on the processing

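The 14 calls of single genes were recomputed under 276 combinations of gene and setting: 243 kept direction and threshold, 32 kept direction without passing, and 1 changed direction, Apoe in AV against YNG within range b, at 0.048. Gpnmb in AV against YNG and in AA against AV was called under all 20 settings of each. Trem2 in ADQ against AV was the least stable of the 14 calls, kept in 12 settings and not passing in 8. Apart from genes that a stricter filter left out, the cause of the changes below was not tested. Counts of the 8 genes called in AV against YNG were 5, but 1 with the T and NK cell score as a covariate. They were 3 with a mean of at least 20, where Cd68 and Lgals3 (mean signals 19.7 and 10.4) were not tested. Over all genes, 1651 were higher and 1675 lower in the main fit, and 979 of 15598 were called with the T and NK cell score. After adjustment the counts of the 8 genes were 2, but 5 with array weights or without rats 4566 to 4572 and 4 within range a. They were 1 with the astrocyte or the choroid plexus score or in a fit of only the 2 groups. They were 0 within range b, without the 4 rats of high Prf1 or with the T and NK cell score. Adjusted calls over all genes were 283 higher and 84 lower of 15598 in the main fit. They were 6324 of 15598 with array weights, 2834 of 15593 without rats 4566 to 4572 and 2895 of 15646 within range a. With the astrocyte and choroid plexus scores and in the fit of 2 groups they were 124, 129 and 66. Within range b, without the 4 rats and with the T and NK cell score they were 8, 38 and 18. In AA against YNG the count of the 8 genes was 2, but 1 within range a and 1 within range b. Over all genes 1959 were higher and 2194 lower, and 4461 of 15646 and 1924 of 15550 were called within ranges a and b. After adjustment the count of the 8 genes was 0, but 1 with total scaling, array weights, the number range as a term or within range a. It was 2 with the microglia score. Over all genes, 241 were higher and 360 lower after adjustment, and in these settings, in order, 1852, 5564, 1300, 1560 and 2000 were called. In ADQ against YNG the count of the 8 genes was 1, but 2 with array weights, the microglia score or within range a. It was 0 within range b, where the adjusted count was also 0. Over all genes 2104 were higher and 2282 lower, and in these settings, in order, 8101, 4355, 4275 and 1069 were called. In AA against AV the count of the 8 genes was 2, but 1 without the 4 rats or with the T and NK cell score. It was also 1 with a mean of at least 20, where Lgals3 was not tested. Over all genes 219 were higher and 484 lower, and 375 were called without the 4 rats and 423 with the T and NK cell score. In ADQ against AV the count of the 8 genes was 4, but 2 without the 4 rats and 0 with the microglia or the T and NK cell score. Over all genes 533 were higher and 921 lower, and in these settings, in order, 752, 580 and 470 were called. In AA against ADQ the count of the 8 genes was 0, but 1 with the microglia score, 2 in a fit of only the 2 groups and 1 in the permutation test. Over all genes 332 were higher and 375 lower, and 802 were called with the microglia score and 872 in the fit of 2 groups. Relations to marker scores numbered 11, and 7 within range b. Leaving out 1 rat at a time gave 4 to 5, 1 to 3, 1 to 1, 2 to 3, 3 to 5 and 0 to 0 calls in AV, AA and ADQ against YNG, AA and ADQ against AV and AA against ADQ, and 1 to 4, 0 to 1 and 0 to 1 after adjustment against YNG. Tyrobp lost its adjusted call in AV against YNG without rat 3989, 3999, 4009, 4568, V4 or V10 (highest adjusted p 0.0865). In range b the AV rats have the numbers 4566 to 4572 and the treated rats 4031 to 4110, so number and group cannot be told apart there. Itgax, Clec7a, Lgals3 and Cd68 rest on few reads. No paired analysis was possible because the labels give no numbers shared between groups.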
